A study of Rattus norvegicus with 21 samples.

Results

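Peritoneal metastases of BDEneu cholangiocarcinoma were compared with liver of the same rats 25 days after the cells were inoculated. The arrays were chosen by their source labels and the day: 3 metastases (BDEneu Met) and 3 samples of normal right liver lobe (Normal RLL), 6 of the 21 arrays of the series. Metastasis and liver came in pairs from rats 7, 8 and 9, which were male young adult Fischer 344 rats. All 6 samples came from animals that bore tumours, so the liver stands for a lobe labelled normal in a rat with cancer and not for the liver of a healthy rat. BDEneu is 1 rat cholangiocyte line transformed by activated neu, the rat Erbb2 oncogene. The series also holds the liver tumours of rats 7, 8 and 9, and tumours and livers of 3 other rats each at days 10 and 15. The day 25 tumours and the day 10 livers are used below only where they bear on the metastasis or its paired liver. The free-text descriptions of the day 25 livers read day 55, whereas their titles and source labels read day 25, which was followed here.

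Intrahepatic cholangiocarcinoma is a cancer of bile duct epithelium that grows in a dense, collagen-rich stroma made by myofibroblasts, and it spreads to the peritoneum, which is lined by mesothelium. Liver tissue is mostly hepatocytes, which make plasma proteins, clotting factors and bile acids and which hold most of the urea cycle and drug metabolism, beside Kupffer cells (resident macrophages), sinusoidal endothelium and a small share of bile ducts. Erbb2 is a receptor tyrosine kinase that signals through partner receptors such as Egfr and Erbb3 and drives the MAP kinase pathway. A metastasis set against liver therefore compares carcinoma with its stroma, on one side, with hepatocytes and liver-resident cells on the other. In such bulk samples fewer cells of a type and less RNA per cell cannot be told apart.

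RNA of snap-frozen tissue was hybridised as biotin-labelled cRNA to 1 Affymetrix array per sample, and the values are robust multi-array average (RMA) log2 intensities. The value of a gene is its brightest probe set that names only that gene, which gave 14217 genes. Values ran between 3.16 and 14.62, and array medians lay between 5.98 and 6.06. A level under 5.98 is called low here: it lies in the lower part of the scale and does not show that a gene is absent. The size of a difference against such a level is not well resolved, so differences of that kind are fitted values only and no fold is given. Levels below are log2 values in the order of rats 7, 8 and 9. Differences, also those in parentheses after a gene, are log2 metastasis minus log2 liver, so 1 unit is a doubling, and a gene was called where limma's moderated test gave a Benjamini-Hochberg adjusted p under 0.05 over all genes. Metastases correlated with each other at 0.956 to 0.979 across probe sets and livers at 0.961 to 0.990, whereas a metastasis and a liver correlated at 0.807 to 0.852. Genes were counted that lay over 2 log2 units above, or below, both other arrays of their group. The metastasis of rat 7 had 12 such genes above and 59 below, that of rat 8 had 115 above and 1 below, and that of rat 9 had 3 above and 4 below. The liver of rat 7 had 66 above and 57 below, against 1 and 1 in rat 8 and 11 and 3 in rat 9. The metastases of rats 7 and 8 and the liver of rat 7 thus stood apart, and results that rest on them are given with the values of each array.

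Of 14217 genes, 8102 were called (57%). The metastases were higher in 4741 genes (33.3%) and lower in 3361 (23.6%), and the median difference over all genes was 0.03. By fitted values the decreases reached further: 256 genes were at least 16-fold lower and 64 at least 16-fold higher. Low levels were not filtered out of these counts or of the 4-fold sets below, so they are counts of fitted values only. No metastasis array overlapped a liver array in 8340 of all 14217 genes, 7407 of them among the 8102 called. Counts of gene-list members below are to be read against the shares of 33.3% higher and 23.6% lower among all genes. Shares near these, as in the mucin, vessel and chemokine lists below, do not set a list apart. When single arrays were left out, list counts of 2 or fewer moved by up to 4 members, so they separate no lists. Larger counts that moved by over 1.5 times are given with the array that moved them.

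**Figure D1:**
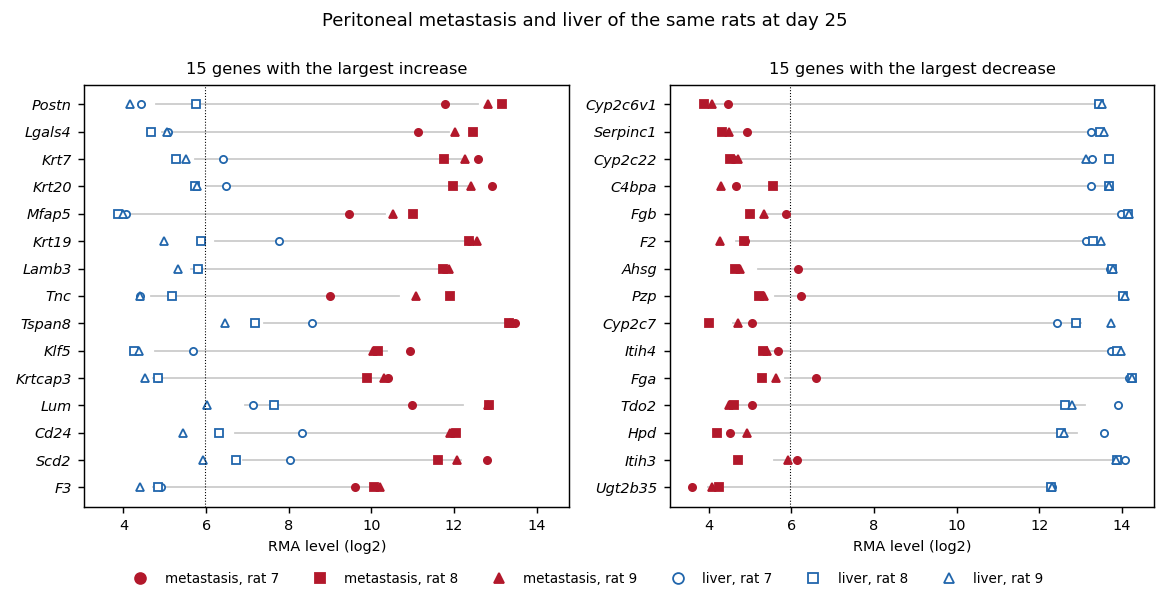
Log2 level (x axis) of the 15 genes with the largest increase and the 15 with the largest decrease in 3 metastases (filled red) and 3 livers (open blue); the marker shape gives the rat and the dotted line the lowest array median, 5.98. The 30 genes were chosen among called genes without overlap between the groups, and in 24 of them the lower group mean lies left of the line.

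The cancer identity of the metastases was checked first. The oncogene carried by the cells, Erbb2, read 10.80, 9.47 and 10.09 in the metastases, against 5.69, 5.23 and 4.98 in the livers. All 3 metastases lay above all livers, and the difference was 4.82, SE 0.37, limma adjusted p = 3.8e-08. Albumin, the main hepatocyte product, read 9.51, 7.64 and 8.13 in the metastases, against 14.40, 14.48 and 14.51 in the livers. No array went against its label, although the metastases kept a readable albumin signal above the array median. The liver of rat 7 read above the other livers for Krt19 and Epcam, used here as markers of carcinoma of bile duct type. Krt19 read 12.35, 12.37 and 12.54 in the metastases, against 7.77, 5.87 and 4.98 in the livers. Epcam read 12.48, 12.46 and 12.34 in the metastases, against 9.07, 7.23 and 6.51 in the livers. Whether ducts or carcinoma cells gave this liver signal was not tested.

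Bile duct and gland-type epithelial genes were among the largest increases. Of 18 measured members of the bile duct epithelium list (22 listed), 12 were higher and 3 lower, with a median of 4.00, and 1 was lower without the liver of rat 8. Lgals4, a galectin of gut-type epithelium, read 11.12, 12.46 and 12.03 in the metastases, against 5.07, 4.67 and 5.05 in the livers, a difference of 6.94, SE 0.29, limma adjusted p = 5.2e-11. The groups stood far apart, with every liver at a low level. Krt7, a duct-type keratin, read 12.57, 11.76 and 12.26 in the metastases, against 6.42, 5.27 and 5.51 in the livers, and differed by 6.46, SE 0.31, limma adjusted p = 2.8e-10. The keratins Krt20 (6.44) and Krt19 (6.21) and the tetraspanin Tspan8 (5.99) rose by similar amounts. Krt8, a keratin that hepatocytes share with ducts, differed by 0.56 and was not called (limma adjusted p = 0.26), but was at 1.01 without the liver of rat 7. Its partner Krt18 fell by 0.82, a call that was lost without the liver of rat 7 (-0.64) or that of rat 8 (-0.75). Onecut2, a transcription factor of early liver and duct cells, was lower at 5.84, 8.15 and 7.02 in the metastases, against 8.46, 9.48 and 9.82 in the livers (-2.25, SE 0.50, limma adjusted p = 0.0011).

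Cell junction genes did not move as a block. Of 23 measured junction members, 15 were higher and 3 lower (5 without the liver of rat 9), with a median of 1.32. The tight junction claudin Cldn4 (4.30), the epithelial vesicle GTPase Rab25 (5.16), the epithelial splicing factor Esrp1 (2.61) and the epithelial cadherin Cdh1 (2.13) rose. Another probe set of Cdh1 differed by -0.01. Klf5, a transcription factor of proliferating epithelium, read 10.92, 10.16 and 10.04 in the metastases, against 5.69, 4.25 and 4.37 in the livers, or 5.60, SE 0.39, limma adjusted p = 1.3e-08, while its other probe sets ranged between -0.05 and 4.74. The desmosomal cadherins Dsc2 (-1.89) and Dsg2 (-1.21) fell.

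Laminin-332 and its receptor rose as a set of subunits. Lamb3, its beta chain, read 11.76, 11.73 and 11.87 in the metastases, against 5.81, 5.81 and 5.31 in the livers. The metastases were nearly level with each other, every liver was low, and the difference was 6.14, SE 0.23, limma adjusted p = 3.2e-11. The alpha chain Lama3 rose by 4.50 and the hemidesmosome integrin Itgb4 by 3.08, and 8 of 10 measured members were higher and 1 lower. Col17a1, the hemidesmosomal collagen, was low on all 6 arrays and differed by -0.06. Dst, which holds the cytoskeletal side of the hemidesmosome, fell by 1.49 on its brightest probe set, while its others ranged between -1.48 and 0.01.

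Mucin and gut-type secretory genes were higher in 5 of 16 members and lower in 2. Muc1, a membrane mucin of ducts, read 8.94, 9.17 and 9.61 in the metastases, against 6.30, 5.81 and 5.92 in the livers (3.23, SE 0.26, limma adjusted p = 5.1e-08). By rat, the median of this list was -0.12 (rat 7), 2.89 (rat 8) and -0.01 (rat 9), and leaving out the metastasis of rat 8 brought the fitted median to -0.04, against 1.00 with it. Pigr, which carries immunoglobulin A across epithelium, read 5.52, 10.74 and 5.08 in the metastases, against 13.42, 13.29 and 13.34 in the livers. It fell by 6.24 (SE 1.17, limma adjusted p = 0.00025), with the metastasis of rat 8 far above the other metastases yet below every liver.

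**Figure D2:**
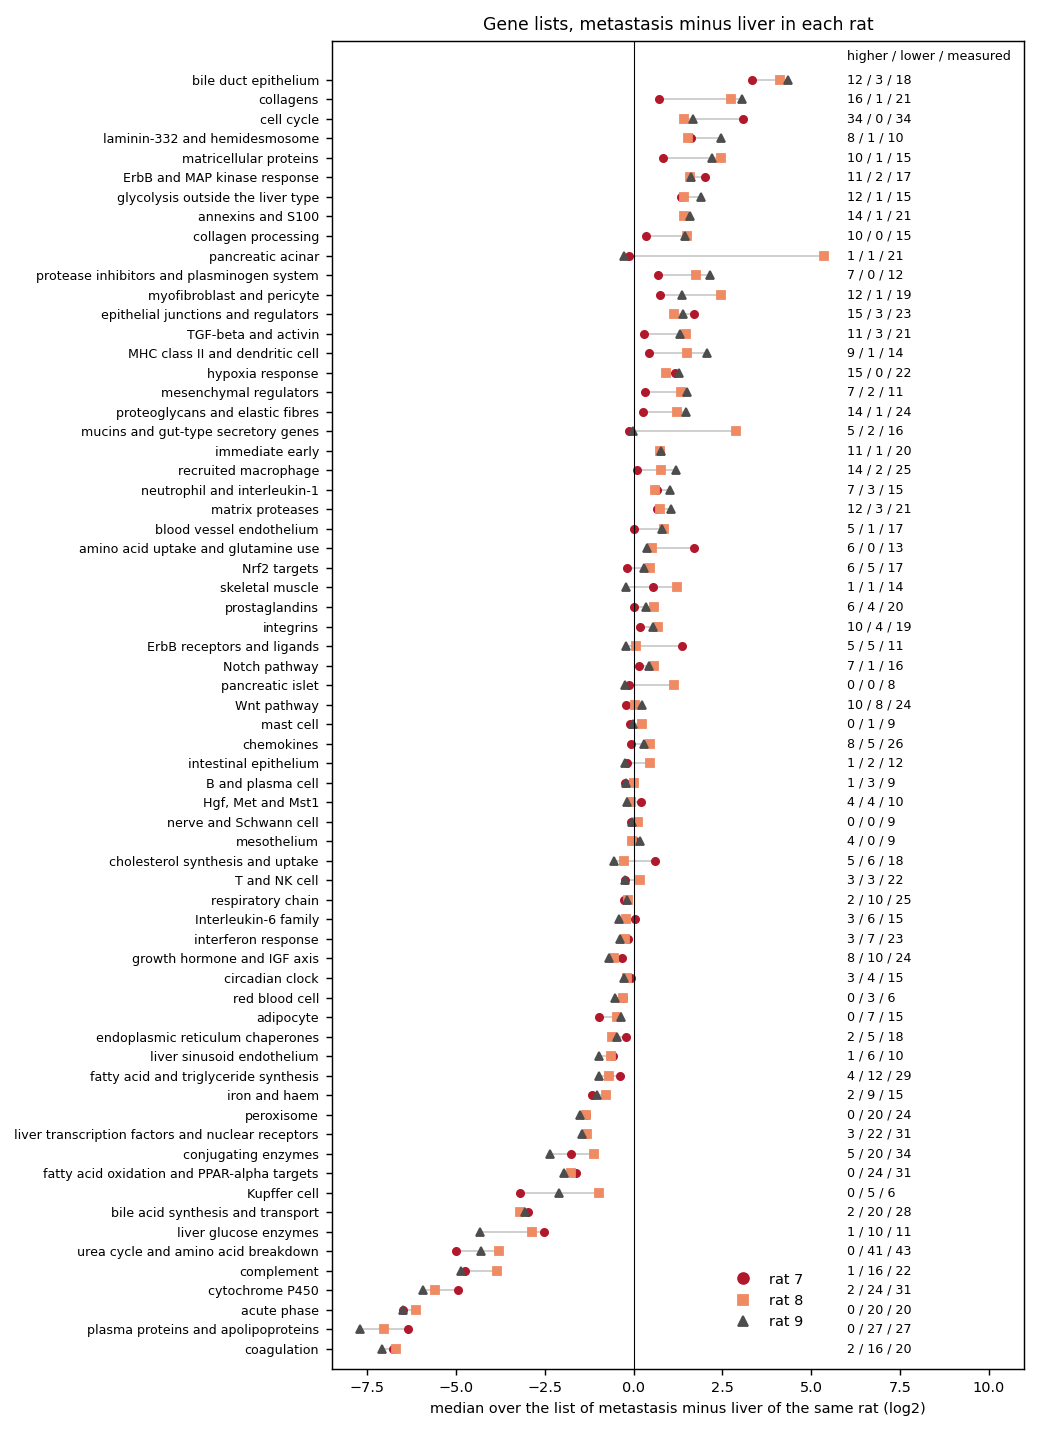
Median log2 difference, metastasis minus liver (x axis), of 66 gene lists, with 1 marker per rat and the numbers of members called higher, called lower and measured beside each list. Cell cycle, bile duct and collagen lists lie right of 0 in all 3 rats, and hepatocyte lists such as coagulation lie far to the left in all 3.

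The ErbB family did not move in one direction. Of 11 measured receptors and ligands, 5 were higher and 5 lower (3 lower without the metastasis of rat 8). Areg, a ligand of Egfr, read 9.63, 6.56 and 7.77 in the metastases, against 4.17, 4.07 and 4.26 in the livers, and all livers were low (3.82, SE 0.63, limma adjusted p = 7.5e-05). The metastasis of rat 7 held the most Areg and that of rat 8 the least, the order also seen for Erbb2. The Egfr ligands Hbegf (3.06), Tgfa (2.76) and Btc (1.59) rose as well. The receptor Egfr itself read 7.08, 7.64 and 7.96 in the metastases, against 10.21, 9.52 and 9.77 in the livers and was lower by 2.27 (SE 0.43, limma adjusted p = 0.00026). Erbb3, the kinase-poor partner of Erbb2, fell by 0.61, and the ligand Egf fell by 2.21.

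Genes induced by MAP kinase signalling were mostly higher: 11 of 17 members rose and 2 fell, with a median of 1.84. The transcription factor Etv4 read 9.09, 7.77 and 8.27 in the metastases, against 4.25, 3.96 and 4.28 in the livers (4.22, SE 0.52, limma adjusted p = 3.9e-06). Fosl1, a Fos family member (2.75), the cyclin Ccnd1 (2.94) and the urokinase receptor Plaur (3.34, another probe set 0.01) rose. Feedback inhibitors of the pathway differed among themselves. The phosphatases Dusp5 (2.71) and Dusp6 (1.99) and the inhibitor Spry2 (2.68) rose, Spry4 (-0.27) and Dusp4 (0.03) were not called, and the ErbB inhibitor Errfi1 fell by 2.05. Of the immediate early genes, 11 of 20 were higher and 1 lower, among them Klf4 (2.03) and Egr2 (2.12, another probe set 0.17). Jun differed by 0.03 and was not called.

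All 34 measured cell cycle genes (36 listed) were higher in the metastases, by 0.64 to 3.82 with a median of 2.07. Ccna2, the S and G2 phase cyclin, read 10.01, 9.57 and 9.35 in the metastases, against 4.17, 6.86 and 6.43 in the livers (3.82, SE 0.71, limma adjusted p = 0.00024). The metastases lay close together, while the liver of rat 7 lay over 2 units under the other livers. The same liver was lowest for Mcm6, a subunit of the replicative helicase, which read 9.89, 9.55 and 9.31 in the metastases, against 4.56, 7.04 and 6.26 in the livers (3.63, SE 0.47, limma adjusted p = 6.7e-06). Pcna, the DNA polymerase clamp, varied less among livers, at 11.81, 11.64 and 11.48 in the metastases, against 9.24, 9.56 and 9.32 in the livers (2.27, SE 0.15, limma adjusted p = 5.1e-09). Rrm1 of ribonucleotide reductase (2.78), Top2a (2.34) and the proliferation antigen Mki67 (2.77) rose, and the smallest increase was that of Tyms (0.64, SE 0.24, limma adjusted p = 0.03), a call lost without the liver of rat 7 (0.30), the metastasis of rat 7 (0.57) or that of rat 9 (0.68). The mean level over the list was 8.85, 8.63 and 8.57 in the metastases of rats 7, 8 and 9, against 5.76, 7.18 and 6.80 in their livers. The median difference was 3.09 in rat 7, 1.42 in rat 8 and 1.68 in rat 9. Left out in turn, the 6 arrays gave 32 to 34 calls and medians between 1.65 and 2.40.

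The start sites of 27 of the 34 cell cycle genes have a promoter sequence in RefSeq (build GRCr8), here the 250 bases before the gene start. The E2F pattern TTTNNCGC, read on both strands, stood in 8 of these 27 windows (29.6%), against 6.51% of the 10945 windows of all genes tested. The pattern CCAAT stood in 20 (74.1%), against 35.1% of all windows. Mcm6 and Ect2 are shown because they are among the largest cell cycle increases and hold these patterns. Ect2, a regulator of cytokinesis, read 9.84, 9.37 and 9.41 in the metastases, against 4.85, 7.29 and 6.27 in the livers (3.40). Capitals below mark the E2F pattern in Mcm6 and CCAAT in Ect2. The Mcm6 window also holds 2 matches to CCAAT or its reverse complement, left in lower case. In Mcm6 at chr13:42404353-42404602 (GRCr8, minus strand) the E2F pattern occurs on both strands in overlapping positions that start 139 and 135 bases before the gene start. In Ect2 at chr2:111966627-111966876 (GRCr8, minus strand) CCAAT or its reverse complement starts 137, 96 and 40 bases before it.
Mcm6: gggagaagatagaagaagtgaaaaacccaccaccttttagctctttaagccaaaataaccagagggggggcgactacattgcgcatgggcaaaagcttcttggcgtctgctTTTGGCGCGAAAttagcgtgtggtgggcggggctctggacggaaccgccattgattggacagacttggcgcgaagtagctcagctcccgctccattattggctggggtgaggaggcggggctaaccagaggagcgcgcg
Ect2: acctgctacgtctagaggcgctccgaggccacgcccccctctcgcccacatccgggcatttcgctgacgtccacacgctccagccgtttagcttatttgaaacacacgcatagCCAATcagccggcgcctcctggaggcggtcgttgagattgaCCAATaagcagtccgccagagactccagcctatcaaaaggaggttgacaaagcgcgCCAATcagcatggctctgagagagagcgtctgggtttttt
A match of letters is a description of these windows and does not show a bound site.

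**Figure D3:**
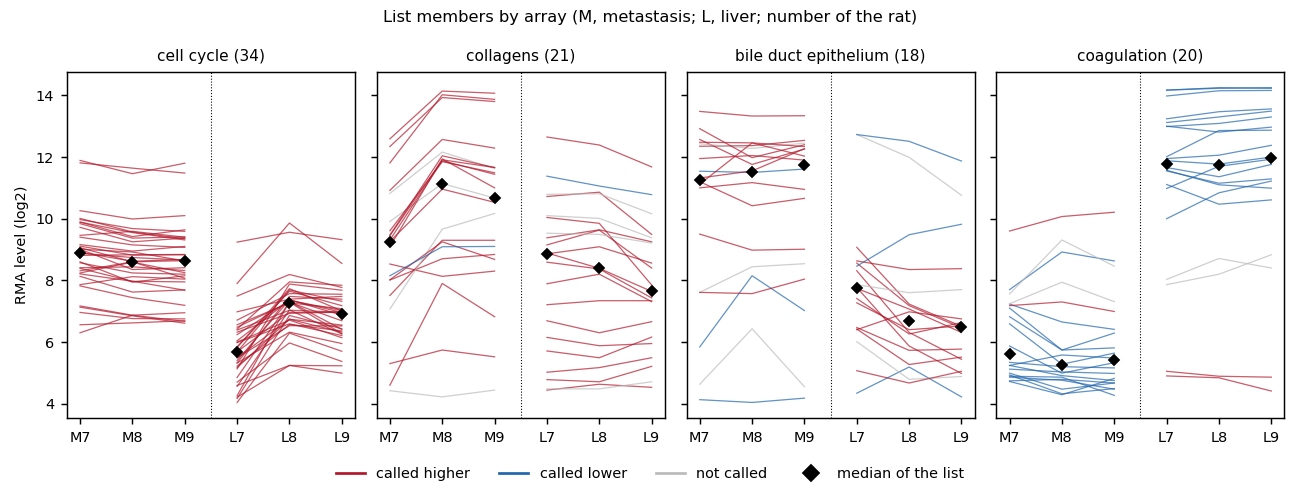
Log2 level (y axis) of each member of 4 gene lists (cell cycle 34, collagens 21, bile duct epithelium 18, coagulation 20) on the 3 metastases and the 3 livers (x axis); a line joins the arrays of 1 gene and black diamonds give list medians. Cell cycle levels are even over the metastases and lowest in the liver of rat 7, collagens are lowest among metastases in rat 7, and most coagulation genes lie at 10 or above in every liver.

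Genes of the hypoxia response were higher in 15 of 22 members and lower in none, with a median of 1.10. Egln3, an oxygen-sensing prolyl hydroxylase, read 10.80, 9.43 and 10.02 in the metastases, against 8.03, 4.75 and 4.64 in the livers (4.28, SE 0.64, limma adjusted p = 2.9e-05). The liver of rat 7 was over 3 units above the other livers for this gene. Car9, a surface carbonic anhydrase, had even livers at 10.03, 8.61 and 8.91 in the metastases, against 5.60, 5.57 and 5.26 in the livers (3.70, SE 0.37, limma adjusted p = 4.6e-07). In both genes the metastasis of rat 7 was the highest. Ndrg1 rose by 3.18, whereas Vegfa (-0.45) and Ldha (-0.02), also known targets of this response, were not called.

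Glucose use differed by enzyme form. Of 15 glycolysis members outside the liver type, 12 were higher and 1 lower, and of 11 liver glucose enzymes 10 were lower and 1 higher. Hk2, a hexokinase of growing and muscle tissue, read 8.65, 6.56 and 7.32 in the metastases, against 5.00, 5.14 and 4.90 in the livers (2.50, SE 0.49, limma adjusted p = 0.00037). The glucose transporters Slc2a1 (2.59) and Slc2a3 (2.50), the aldolase Aldoa (2.17) and the lactate exporter Slc16a3 (2.14) rose. On the liver side, Pck1, the rate-limiting enzyme of glucose synthesis, read 6.03, 5.32 and 5.17 in the metastases, against 13.37, 13.07 and 12.82 in the livers (-7.58, SE 0.58, limma adjusted p = 3.6e-08). The liver glucose transporter Slc2a2 (-7.02), fructose bisphosphatase Fbp1 (-6.90) and liver glycogen synthase Gys2 (-5.64) fell. Of 13 genes of amino acid uptake and glutamine use, 6 rose and none fell, among them the cationic amino acid transporter Slc7a1 (3.02) and the glutamine transporter Slc1a5 (2.32). The median of that list was 1.70 in rat 7, 0.52 in rat 8 and 0.39 in rat 9.

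Stromal lists had more members higher than lower, and their medians by rat were lowest in rat 7. Of 21 collagens, 16 were higher and 1 lower, with a median of 2.22. Col1a1, the main chain of fibrillar collagen I, read 11.81, 14.02 and 13.87 in the metastases, against 10.04, 9.85 and 7.85 in the livers (3.99, SE 0.64, limma adjusted p = 6.2e-05). All metastases lay above all livers, with the closest pair in rat 7. Col3a1 read 12.59, 14.14 and 14.07 in the metastases, against 12.65, 12.39 and 11.68 in the livers, and the metastasis of rat 7 lay within the range of the livers (1.36, SE 0.35, limma adjusted p = 0.0036). Col15a1, a basement membrane collagen, rose by 4.13. Col18a1, which hepatocytes also make, read 8.15, 9.09 and 9.10 in the metastases, against 11.38, 11.06 and 10.78 in the livers and fell by 2.30. The median over the collagens was 0.72 in rat 7, 2.75 in rat 8 and 3.04 in rat 9.

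Matricellular and elastic fibre genes gave some of the largest increases. Postn, periostin, a matrix protein of activated fibroblasts, read 11.78, 13.15 and 12.83 in the metastases, against 4.43, 5.75 and 4.16 in the livers. The livers were low, and the fitted difference of 7.81, SE 0.60, limma adjusted p = 3.6e-08 ranks first among increases only as a fitted value. Tnc, tenascin C, read 8.99, 11.91 and 11.08 in the metastases, against 4.41, 5.17 and 4.41 in the livers (5.99, SE 0.58, limma adjusted p = 3.9e-07). Its level in the metastasis of rat 7 was over 2 units under that of the other metastases. Mfap5 (6.35), a microfibril protein, and the proteoglycan Lum (5.28) rose with them. The growth-factor-binding Ccn2 rose by 4.17, with the liver of rat 7 at 10.95 and the other livers at 7.05 and 6.47. Fn1, fibronectin, which hepatocytes secrete into plasma, fell by 0.74, and the syndecan Sdc2 fell by 3.01. In all, 10 of 15 matricellular genes were higher and 1 lower, and 14 of 24 proteoglycan and elastic fibre genes were higher and 1 lower.

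Myofibroblast and pericyte genes were higher in 12 of 19 members and lower in 1. Acta2, smooth muscle actin of myofibroblasts, read 10.11, 11.25 and 10.38 in the metastases, against 8.27, 8.36 and 7.98 in the livers (2.38, SE 0.38, limma adjusted p = 5.1e-05). Tagln (3.26), the fibroblast protease Fap (2.62) and Thy1 (2.76) rose. Lrat, which stores vitamin A in quiescent stellate cells, fell by 2.11. The fibroblast receptors Pdgfra (0.22) and Pdgfrb (0.44) were not called, but both were without the metastasis of rat 7, at 0.68 and 0.78. Collagen-processing enzymes followed: 10 of 15 were higher and none lower, led by the lysyl oxidase Loxl1 at 10.41, 10.78 and 10.55 in the metastases, against 6.94, 7.09 and 6.66 in the livers (3.68, SE 0.16, limma adjusted p = 1.1e-10). Of 11 mesenchymal regulators 7 were higher and 2 lower. Cdh11 (3.29), a fibroblast cadherin, rose on its brightest probe set while its others gave -0.39 and 0.23, and Cdh2, the N-cadherin that rat hepatocytes carry, fell by 4.80, with its other probe sets between -4.46 and -0.22.

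Matrix proteases and their inhibitors had more called members higher than lower. Of 21 proteases, 12 were higher and 3 lower, and of 12 inhibitors and plasminogen-system genes 7 were higher and none lower. Mmp12, an elastase best known from macrophages, read 10.53, 10.71 and 11.56 in the metastases, against 5.89, 6.17 and 5.25 in the livers (5.17, SE 0.33, limma adjusted p = 4.9e-09). All livers were near the array median or below it. Adam8 (4.02) and the gelatinase Mmp2 (3.46) rose on their brightest probe sets, while another probe set gave -0.35 and -0.55 for them in that order. Timp1, a metalloprotease inhibitor, rose by 2.54 and the serine protease inhibitor Tfpi2 by 3.67. The lysosomal protease Ctsl fell by 1.47. Of 21 TGF-beta and activin genes 11 were higher and 3 lower, including the activin subunit Inhbb (3.30), the bone morphogenetic protein inhibitor Grem1 (2.81) and Tgfb1 (1.64). Inhbe, an activin subunit of hepatocytes, read 6.11, 5.62 and 5.59 in the metastases, against 5.91, 9.54 and 9.84 in the livers. The liver of rat 7 lay among the metastases, and the call (-2.66) was lost without the liver of rat 9 (-1.95).

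The AP-1 pattern TGANTCA stood in 5 of the 15 protease promoters with a sequence (33.3%), against 4.89% of all 10945 windows. These 5 belong to Mmp3, Mmp7, Mmp10, Mmp12 and Mmp13, relatives in 1 gene family. The share covers measured proteases whether called or not, and their windows had a median GC content of 52.4%, against 59.2% for all. Among genes called at least 4-fold higher the AP-1 pattern stood in 10.7% of 441 windows, and among those called at least 4-fold lower in 5.88% of 493. Mmp12 and Epcam, an epithelial adhesion protein that rose by 4.82, are shown as a stromal or immune and an epithelial example, with the match in capitals. It starts 87 bases before the start of Mmp12, at chr8:12866402-12866651 (GRCr8, plus strand), and 141 bases before that of Epcam, at chr6:12649679-12649928 (GRCr8, minus strand).
Mmp12: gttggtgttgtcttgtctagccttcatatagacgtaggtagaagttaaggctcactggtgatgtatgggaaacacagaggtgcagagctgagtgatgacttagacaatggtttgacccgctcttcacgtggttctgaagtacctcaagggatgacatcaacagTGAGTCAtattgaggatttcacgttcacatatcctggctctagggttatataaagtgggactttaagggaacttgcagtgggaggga
Epcam: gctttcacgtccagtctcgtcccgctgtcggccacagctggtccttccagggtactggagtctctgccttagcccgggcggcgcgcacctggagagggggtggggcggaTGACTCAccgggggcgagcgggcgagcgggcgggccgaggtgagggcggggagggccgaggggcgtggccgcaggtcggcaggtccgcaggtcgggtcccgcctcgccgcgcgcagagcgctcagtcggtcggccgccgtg
Of the same windows, 8.84% of the 441 of genes called at least 4-fold higher held the E2F pattern, against 6.51% of all 10945 and 2.43% of the 493 of genes at least 4-fold lower.

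Coagulation split between its trigger and its plasma factors. Of 20 measured genes, 2 were higher and 16 lower, with a median of -6.88. F3, tissue factor, the membrane receptor that starts clotting, read 9.60, 10.07 and 10.21 in the metastases, against 4.90, 4.84 and 4.41 in the livers (5.24, SE 0.25, limma adjusted p = 2.8e-10), with every liver low. F13a1, the clot-linking transglutaminase chain found in macrophages, rose by 2.22. Prothrombin, F2, read 4.89, 4.86 and 4.27 in the metastases, against 13.12, 13.30 and 13.49 in the livers (-8.63, SE 0.86, limma adjusted p = 4.7e-07). Antithrombin, Serpinc1, fell by 8.85, plasminogen, Plg, by 7.89 and F9 by 8.32. The fibrinogen chains Fga (-8.38), Fgb (-8.70) and Fgg (-7.84) fell in step, although other probe sets of Fgb gave -0.36 and -0.25.

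Plasma proteins and apolipoproteins were lower in all 27 members measured, by 2.72 to 8.56 with a median of -6.71. Acute phase proteins were lower in all 20, with a median of -6.21. Ahsg, fetuin A, read 6.17, 4.63 and 4.76 in the metastases, against 13.72, 13.75 and 13.78 in the livers (-8.56, SE 0.75, limma adjusted p = 1.3e-07). The livers were nearly level with each other, near the top of the scale. Apob, the protein of liver lipoproteins, read 5.21, 8.41 and 5.08 in the metastases, against 13.54, 13.77 and 13.78 in the livers (-7.46, SE 1.01, limma adjusted p = 1.1e-05), with the metastasis of rat 8 over 3 units above the other metastases. The complement list split as coagulation did: 16 of 22 members were lower and 1 higher. The plasma inhibitor C4bpa read 4.66, 5.56 and 4.29 in the metastases, against 13.26, 13.69 and 13.69 in the livers (-8.71, SE 0.91, limma adjusted p = 8e-07). C3, which stromal and immune cells also make, fell less, at 11.31, 12.23 and 11.77 in the metastases, against 14.13, 14.28 and 14.28 in the livers (-2.46, SE 0.44, limma adjusted p = 0.00017). The C1q chains of macrophages, C1qa (0.47), C1qb (0.22) and C1qc (0.46), were not called. Without the liver of rat 7 C1qa (0.66) and C1qc (0.73) were called, as they were without the metastasis of rat 7 (0.72 and 0.68). In the same list the receptor C5ar1 rose by 1.04.

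The pattern GTTAAT, the core of HNF1 sites, was searched on both strands because HNF1 proteins are known regulators of hepatocyte genes. It stood in 4.31% of all 10945 windows, in 10.3% of the 493 windows of genes called at least 4-fold lower and in 3.4% of the 441 of genes called at least 4-fold higher. The pattern AAGTCCA of HNF4 sites stood in 2.69% of all windows, in 6.29% of those lower and in 1.81% of those higher. In the coagulation list 4 of 14 promoters held GTTAAT (28.6%) and 0 of 14 held AAGTCCA. The promoter of C4bpa, at chr13:44663472-44663721 (GRCr8, minus strand), is shown as an example among the largest decreases, with its match starting 76 bases before the gene start. That of Hgd, an enzyme of tyrosine breakdown that read 4.33, 3.83 and 4.36 in the metastases, against 11.58, 10.99 and 10.74 in the livers (-6.93, SE 0.71, limma adjusted p = 6.1e-07), lies at chr11:76643768-76644017 (GRCr8, minus strand) and holds the reverse complement of the HNF4 pattern, which starts 33 bases before the gene.
C4bpa: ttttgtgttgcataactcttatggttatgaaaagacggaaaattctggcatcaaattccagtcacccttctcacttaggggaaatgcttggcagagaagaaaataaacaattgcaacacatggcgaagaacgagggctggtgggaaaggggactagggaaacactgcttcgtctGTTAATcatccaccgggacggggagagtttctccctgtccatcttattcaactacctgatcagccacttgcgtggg
Hgd: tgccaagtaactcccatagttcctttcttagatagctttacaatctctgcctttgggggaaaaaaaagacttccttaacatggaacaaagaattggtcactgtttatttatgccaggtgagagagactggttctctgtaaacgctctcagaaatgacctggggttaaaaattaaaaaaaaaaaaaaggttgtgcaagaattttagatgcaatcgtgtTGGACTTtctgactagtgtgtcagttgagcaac
The median GC content of the windows was 54.8% for the lower genes, 60.8% for the higher genes and 59.2% for all, so the sets also differ in base composition.

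Drug-metabolising enzymes were mostly lower. Of 31 cytochrome P450 genes, 24 were lower and 2 higher, with a median of -5.52. Cyp2c6v1 read 4.46, 3.90 and 4.09 in the metastases, against 13.43, 13.45 and 13.52 in the livers. The metastases were low, and the fitted difference (-9.32, SE 0.88, limma adjusted p = 3e-07) ranks first among decreases only as a fitted value. The rat Cyp2c genes are close relatives whose probe sets may share signal. Cyp2c11, the male-specific P450 of rat liver, read 5.28, 4.47 and 5.73 in the metastases, against 5.93, 6.76 and 11.13 in the livers and was not called (limma adjusted p = 0.082). Its livers spread over 5 units, and only the liver of rat 9 was high. In the day 10 livers of other rats it averaged 13.48 ± 0.12 (SD, n = 3 arrays). The day 25 livers were lower than these by 5.54 (SE 1.32, limma adjusted p = 0.016). The difference between metastasis and paired liver, -2.78, was called with the rat as a block, and at -3.78 without the liver of rat 7. Cyp26b1, which breaks down retinoic acid, rose by 2.83 (another probe set 0.44). Among 34 conjugating enzymes 20 were lower and 5 higher. The glutathione transferase Gstp1, a duct and tumour form in rat liver, read 12.88, 12.67 and 12.76 in the metastases, against 9.12, 8.63 and 8.34 in the livers (4.07, SE 0.17, limma adjusted p = 5.2e-11), whereas the hepatocyte form Gsta1 fell by 5.18. Nrf2 targets were mixed, with 6 higher and 5 lower of 17: Gpx2 rose by 2.95 and Nqo1 fell by 2.95.

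The urea cycle and amino acid breakdown were lower in 41 of 43 members and higher in none, with a median of -4.12. Cps1, the first enzyme of the urea cycle, read 5.02, 10.61 and 4.12 in the metastases, against 13.66, 13.20 and 12.85 in the livers (-6.66, SE 1.13, limma adjusted p = 0.0001). The metastasis of rat 8 was over 5 units above the others, and without it the difference was -8.67. Tdo2, which opens the tryptophan ring, fell by 8.37, and Hpd of tyrosine breakdown by 8.35. Glul, glutamine synthetase, was level at 10.74, 11.19 and 11.03 in the metastases, against 10.69, 11.27 and 11.06 in the livers and was not called.

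Bile acid synthesis and transport was lower in 20 of 28 members and higher in 2. The bile salt export pump Abcb11 read 4.13, 3.93 and 4.08 in the metastases, against 11.10, 11.18 and 10.94 in the livers (-7.03, SE 0.78, limma adjusted p = 1.5e-06). Cyp7a1, which opens the path from cholesterol to bile acids, fell by 5.35, the uptake carrier Slc10a1 by 7.18 and the conjugating enzyme Baat by 6.89. The basolateral pump Abcc4 rose by 1.69. Fatty acid oxidation was lower in 24 of 31 members and peroxisomal genes in 20 of 24, with none higher in either list. Fabp1, the fatty acid carrier of liver and gut, read 5.18, 12.46 and 4.57 in the metastases, against 10.36, 13.44 and 13.67 in the livers (-5.09, SE 1.80, limma adjusted p = 0.023). The metastasis of rat 8 lay within the range of the livers, and the call was lost without the metastasis of rat 7, that of rat 9, the liver of rat 8 or the liver of rat 9, at -3.67 to -4.61. Without the metastasis of rat 8 the difference was -7.61. Urate oxidase, Uox, fell by 5.31 and catalase, Cat, by 3.05. Of 25 respiratory chain genes 10 were lower and 2 higher, with a median of -0.18, and citrate synthase, Cs, counted in that list, rose by 1.44, with its other probe sets between 0.02 and 1.00.

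Liver transcription factors and nuclear receptors were lower in 22 of 31 members and higher in 3. Hnf4a, a master regulator of hepatocyte genes, read 5.49, 8.77 and 7.34 in the metastases, against 11.32, 11.16 and 11.43 in the livers (-4.10, SE 0.71, limma adjusted p = 0.00012). All metastases lay below all livers, with over 3 units between the metastases of rats 7 and 8. Prox1 (-4.82), Foxa3 (-3.42) and the xenobiotic receptor Nr1i2 (-2.97, SE 0.16, limma adjusted p = 8.6e-10) fell, and another probe set of Prox1 gave -0.51. Sox17, a factor of endoderm and endothelium, read 12.95, 11.22 and 11.73 in the metastases, against 7.49, 6.43 and 6.81 in the livers (5.06, SE 0.45, limma adjusted p = 1.5e-07) on its brightest probe set, while the others ranged between -0.11 and 4.44. Gata6 rose by 1.25, while another probe set gave -0.51.

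Lipid synthesis genes differed between the paired livers and the day 10 livers, which came from other rats. In day 25 livers 15 of 29 members were lower than in day 10 livers and none higher. Of all genes, 3.77% were called lower, 5.33% higher and 9.1% either way in that comparison. Fasn, fatty acid synthase, read 10.39, 10.15 and 10.29 in the metastases, against 7.82, 9.70 and 10.49 in the livers and was not called (0.94, SE 0.46, limma adjusted p = 0.091), but was at 1.51 without the liver of rat 9. It averaged 9.34 ± 1.37 in day 25 livers, against 12.36 ± 0.13 in day 10 livers (SD, n = 3 arrays each), a difference of -3.03 (SE 0.46, limma adjusted p = 0.0013). Pnpla3 differed by 0.04 between metastasis and liver at day 25, and by -4.68 between day 25 and day 10 livers. The desaturase Scd, the liver form, read 5.92, 5.23 and 5.54 in the metastases, against 8.43, 9.95 and 12.21 in the livers (-4.63, SE 0.94, limma adjusted p = 0.00053). Its relative Scd2 read 12.80, 11.60 and 12.07 in the metastases, against 8.03, 6.72 and 5.92 in the livers and went the other way (5.26, SE 0.42, limma adjusted p = 4.7e-08), with its other probe sets at 0.21 and 4.24. Soat1, which esterifies cholesterol, rose by 4.49, SE 0.29, limma adjusted p = 4.9e-09. At day 25, 12 of the 29 lipid synthesis members were lower in the metastases and 4 higher, or 2 higher without the liver of rat 7. Acly (0.94) and Elovl6 (1.22) were higher than in the paired livers, but lower than the mean of the 9 livers of all days, at -0.92 and -0.24. The call of Acly was lost without the liver of rat 7 or 8 or the metastasis of rat 7 or 9 (0.67 to 0.98), and that of Elovl6 without the liver of rat 7 (0.72) or the metastasis of rat 8 (0.95). The mean of the 9 livers also reversed the small differences of Fasn (-0.99) and Pnpla3 (-3.08). Cholesterol synthesis was mixed, with 5 higher and 6 lower of 18, and 3 higher without the metastasis or the liver of rat 7.

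**Figure D4:**
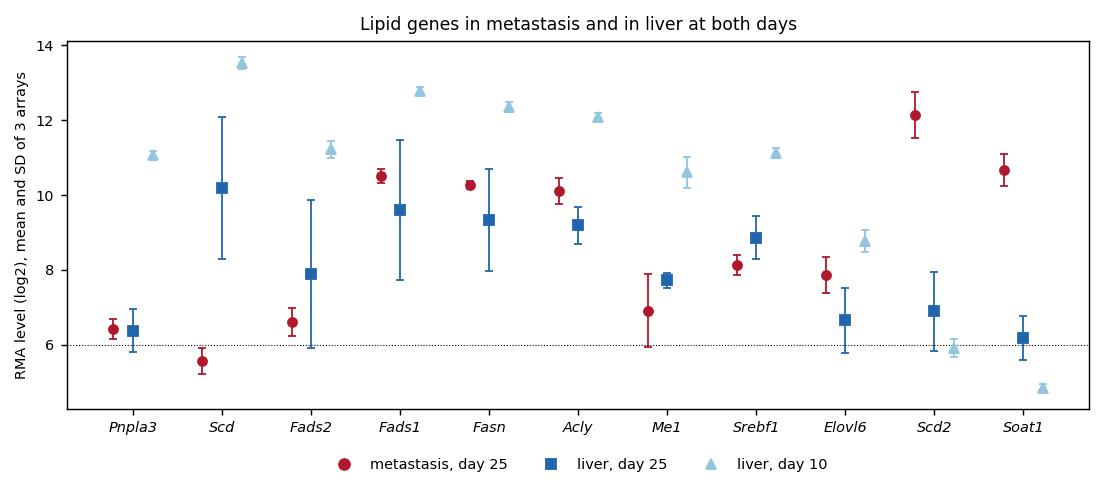
Log2 level (y axis, markers and bars are the mean ± SD of 3 arrays) of 11 lipid genes in day 25 metastases, the paired day 25 livers and day 10 livers. Fasn and Pnpla3 in the metastases lie close to the day 25 livers and below the day 10 livers, whereas Scd2 and Soat1 in the metastases lie above both liver groups.

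Some genes that were higher in day 25 livers than in the day 10 livers of other rats bear on the comparison. Lcn2, lipocalin of neutrophils and injured epithelium, read 7.91, 7.37 and 7.44 in the metastases, against 9.26, 10.80 and 10.68 in the livers (-2.67, SE 0.83, limma adjusted p = 0.012). It was higher by 4.89 (SE 0.83, limma adjusted p = 0.0027) in day 25 than in day 10 livers. A2m, an acute phase protease inhibitor in rats, fell by 4.70 in the metastases and was 5.26 above day 10 in the livers. S100a8, a neutrophil protein, was not called between metastasis and liver (0.80) and was 4.44 above day 10 in the livers. Interleukin-6 family genes were lower in 6 of 15 and higher in 3, with the receptor Il6r down by 2.09 and Stat3 by 1.30.

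Recruited macrophages and Kupffer cells were followed by separate lists. Of 25 recruited macrophage genes, 14 were higher and 2 lower, with a median of 0.89. In the day 25 livers themselves 11 of these 25 were higher than in the day 10 livers of other rats. None was lower there, and 5.33% of all genes were higher. Lyz2, lysozyme, read 13.46, 13.91 and 13.88 in the metastases, against 10.99, 11.30 and 10.82 in the livers (2.72, SE 0.17, limma adjusted p = 3.1e-09). Spp1, osteopontin, made by macrophages and duct cells alike, rose by 5.01. Kupffer cell genes were lower in 5 of 6 and higher in none. Clec4f, a lectin of Kupffer cells, read 5.94, 5.97 and 5.87 in the metastases, against 10.58, 10.33 and 10.61 in the livers (-4.58, SE 0.52, limma adjusted p = 1.8e-06), and Cd5l 4.19, 4.12 and 4.27 in the metastases, against 11.25, 11.29 and 11.15 in the livers (-7.04, SE 0.78, limma adjusted p = 1.5e-06). In both genes the metastases lay far below the livers, which differed little among themselves. Sinusoidal genes were lower in 6 of 10 and higher in 1, with the scavenger receptor Stab2 at 5.33, 4.99 and 5.36 in the metastases, against 8.90, 9.76 and 9.54 in the livers (-4.17, SE 0.33, limma adjusted p = 5e-08). Of 17 general vessel genes 5 were higher and 1 lower, with 10 higher without the metastasis of rat 7 and 3 lower without that of rat 8. Pecam1, a marker of all endothelium (0.17), was called only without the metastasis of rat 7 (0.61).

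Major histocompatibility complex class II and dendritic cell genes were higher in 9 of 14 members and lower in 1. RT1-Da, a class II chain, read 12.33, 13.31 and 13.29 in the metastases, against 10.75, 10.83 and 10.15 in the livers (2.40, SE 0.28, limma adjusted p = 2e-06), and the invariant chain Cd74 rose by 1.90. Their median was 0.42 in rat 7, 1.49 in rat 8 and 2.07 in rat 9. T and NK cell genes gave 3 higher and 3 lower of 22, B and plasma cell genes 1 and 3 of 9, and mast cell genes 0 and 1 of 9. Most T and NK cell means were low, in 17 of 22 genes for the metastases and 15 for the livers. Means were also low in 5 and 6 of 9 B and plasma cell genes and in 7 and 8 of 9 mast cell genes, in that order. Differences at such levels are not well resolved, so these counts do not show equal numbers of such cells. Without the metastasis of rat 7, 5 T and NK cell genes were higher and 1 lower, and 4 mast cell genes were higher. The lower T and NK cell genes numbered 5 without the metastasis of rat 8 and 1 without that of rat 9 or the liver of rat 9. The T cell chain Cd8a rose by 1.35, with its other probe sets between -0.06 and 1.22. Blnk, an adaptor of B cells and macrophages, rose by 2.82, whereas the B cell antigens Ms4a1 (-0.70) and Cd22 (-0.80) fell. Interferon response genes were lower in 7 of 23, a share near that of all genes, and higher in 3. The lower ones numbered 4 without the metastasis of rat 7 and 3 without the liver of rat 9. The guanylate-binding Gbp4 read 9.71, 8.89 and 9.09 in the metastases, against 4.49, 4.53 and 4.71 in the livers (4.65, SE 0.24, limma adjusted p = 5.3e-10) and Gbp2 rose by 3.65, while Stat2 fell by 0.99 and Isg15 (-0.09) was not called.

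Of 26 chemokine genes 8 were higher and 5 lower, or 3 lower without the liver of rat 8 or 9. Cxcl6, a neutrophil attractant, read 11.25, 10.76 and 11.12 in the metastases, against 6.75, 5.68 and 5.41 in the livers (5.09, SE 0.33, limma adjusted p = 5.1e-09). The monocyte attractant Ccl2 read 8.16, 10.81 and 10.24 in the metastases, against 5.25, 5.74 and 5.81 in the livers (4.14, SE 0.57, limma adjusted p = 1.2e-05), lowest among metastases in rat 7. Cxcl2 showed the opposite order of rats, at 10.13, 7.29 and 9.14 in the metastases, against 5.16, 4.55 and 4.76 in the livers (4.03, SE 1.19, limma adjusted p = 0.0084). Cxcl12, a fibroblast chemokine, read 7.69, 11.13 and 10.84 in the metastases, against 9.63, 9.73 and 9.82 in the livers and was not called (0.16), with the metastasis of rat 7 below every liver and the others above. The lymph node chemokine Ccl21 fell by 2.62. Of 15 neutrophil and interleukin-1 genes 7 were higher and 3 lower, led by Il1a at 10.06, 9.85 and 10.72 in the metastases, against 6.38, 6.62 and 7.00 in the livers (3.54, SE 0.32, limma adjusted p = 1.9e-07), with Il1b at 1.88. In day 25 livers 7 genes of this list were higher than in day 10 livers and none lower, against 5.33% of all genes higher.

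Calcium-binding annexins and S100 proteins were higher in 14 of 21 members and lower in 1. S100a11 read 13.79, 13.60 and 13.71 in the metastases, against 10.51, 10.17 and 9.21 in the livers (3.74, SE 0.24, limma adjusted p = 3.9e-09), and Anxa1, an anti-inflammatory annexin, rose by 3.66. Of 19 integrins 10 were higher and 4 lower. Cav1, the coat protein of caveolae, averaged 11.40 ± 0.44 in metastases and 6.26 ± 0.34 in livers (SD, n = 3 arrays each), a difference of 5.14, SE 0.24, limma adjusted p = 1.6e-10. In the growth hormone and IGF axis 8 of 24 genes were higher and 10 lower. Igfbp1, a stress-induced binding protein of hepatocytes, read 4.91, 4.53 and 4.72 in the metastases, against 13.79, 10.35 and 10.34 in the livers (-6.77, SE 0.68, limma adjusted p = 5.6e-07), the receptor Ghr fell by 4.86 and Igfbp5 rose by 3.79, with its other probe sets between 0.12 and 1.82.

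Hgf, the ligand of Met, read 5.32, 5.04 and 5.28 in the metastases, against 7.38, 7.45 and 7.87 in the livers and was lower in the metastases (-2.35, SE 0.19, limma adjusted p = 4.3e-08), while Met itself differed by 0.02 and was not called. The epithelial protease St14 (3.02) and its inhibitor Spint1 (2.92) rose, and Mst1, a liver-made relative of Hgf, fell by 5.06. Of the 10 members of that list 4 were higher and 4 lower. Notch genes were higher in 7 of 16 and lower in 1, with the ligand Jag1 at 1.68 and the target Nrarp at 1.89 (its other probe sets between -0.02 and 1.02). Wnt genes gave 10 higher (6 without the liver of rat 9) and 8 lower of 24: the inhibitor Sfrp1 rose by 2.17, lowest among metastases in rat 7, and the target Axin2 fell by 1.09. Iron and haem genes were lower in 9 of 15 and higher in 2, including hepcidin, Hamp (-5.96), and the liver transferrin receptor Tfr2 (-6.69). Endoplasmic reticulum chaperones gave 2 higher and 5 lower of 18, with 10 lower without the liver of rat 7 and 3 without that of rat 8 or 9. Of 20 prostaglandin genes 6 were higher and 4 lower. Of 15 clock genes 3 were higher (1 without the metastasis of rat 7 or the liver of rat 8) and 4 lower, and Bhlhe41 read 9.68, 8.01 and 8.48 in the metastases, against 4.77, 4.59 and 4.64 in the livers (4.06, SE 0.42, limma adjusted p = 7.7e-07).

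Markers of neighbouring tissues were looked for in each metastasis, and differed by rat. The genes named in this paragraph were picked for the size of the deviation after values were seen, apart from the markers of the lists, so they carry no test of the deviation. The pancreatic acinar list (21 genes) had a mean level of 5.03, 10.13 and 4.98 in the metastases of rats 7, 8 and 9, against 5.28, 5.37 and 5.47 in the livers. Ctrb1, chymotrypsinogen, read 4.29, 13.44 and 4.31 in the metastases, against 4.51, 4.40 and 4.55 in the livers, and was not called (limma adjusted p = 0.22). Insulin, Ins2, read 5.11, 9.18 and 5.10 in the metastases, against 5.18, 5.20 and 5.27 in the livers, and the gut mucin Muc2 5.81, 9.58 and 5.86 in the metastases, against 5.95, 5.95 and 6.09 in the livers. Muc2 was called only without the metastasis of rat 7 (1.73) or that of rat 9 (1.70). Tff2, a trefoil factor of mucus-secreting glands, read 4.57, 12.94 and 5.39 in the metastases, against 5.32, 5.40 and 5.36 in the livers. Each of these genes was high only in the metastasis of rat 8 and lay at the liver level in the other metastases. The same array carried the high values of Fabp1, Cps1, Apob, Mttp (4.03, 9.50 and 3.97 in the metastases, against 9.74, 11.27 and 11.03 in the livers) and Pigr given above, genes that liver and gut both make. The part of other tissue in them was not tested. The tumour of rat 9 also had acinar signal, with Ctrb1 at 4.48, 4.31 and 9.80 in the tumours of rats 7, 8 and 9.

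Skeletal muscle actin, Acta1, read 8.53, 10.46 and 4.21 in the metastases, against 4.46, 4.48 and 4.44 in the livers, high in the metastases of rats 7 and 8 and at the liver level in rat 9. It was called, at 5.03, only without the metastasis of rat 9. The muscle list averaged 6.20, 6.67 and 5.16 in the metastases, against 5.38, 5.27 and 5.34 in the livers, with 1 member higher and 1 lower of 14. Gkn2, a stomach protein, read 3.93, 3.97 and 7.97 in the metastases, against 4.17, 4.23 and 4.28 in the livers, high only in the metastasis of rat 9, and without that array the difference of 1.06 became -0.28 (1.74 and 1.72, both called, without the metastasis of rat 7 or 8). Kap, known as an androgen-regulated kidney protein from mouse, read 12.12, 5.50 and 6.93 in the metastases, against 5.38, 5.68 and 5.73 in the livers, high in the metastasis of rat 7, and it also read 11.87, 9.88 and 6.75 in the tumours of rats 7, 8 and 9. It was called only without the metastasis of rat 8 (3.93). Of 9 mesothelial markers 4 were higher and none lower. Msln, mesothelin, which carcinomas also carry, read 10.85, 10.19 and 10.49 in the metastases, against 9.32, 6.36 and 6.20 in the livers (3.21, SE 0.58, limma adjusted p = 0.00019) and was as high in the tumours, at 10.61, 9.96 and 9.99. Wt1, a mesothelial transcription factor, rose by 1.93, SE 0.35, limma adjusted p = 0.00021, with another probe set at 0.47, and Lrrn4 (0.02) and Calb2 (-0.23) were not called. Cdx2, an intestinal transcription factor, read 7.53, 7.78 and 7.23 in the metastases, against 5.76, 5.82 and 6.13 in the livers, much the same in each metastasis (1.61, SE 0.16, limma adjusted p = 5.3e-07). Of 12 intestinal epithelium genes 1 was higher and 2 lower, of 15 adipocyte genes 0 and 7, of 8 islet and 9 nerve genes none either way, and of 6 red cell genes 0 and 3. Among the adipocyte markers, Cidec averaged 8.98 in the livers and fell by 2.79. Adipoq (-0.20) and Plin1 (-0.19) were low in both groups and not called. The adipocyte count therefore does not show less fat tissue in the metastases. Whether signals of other tissues moved any other difference was not tested beyond leaving out each array.

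**Figure D5:**
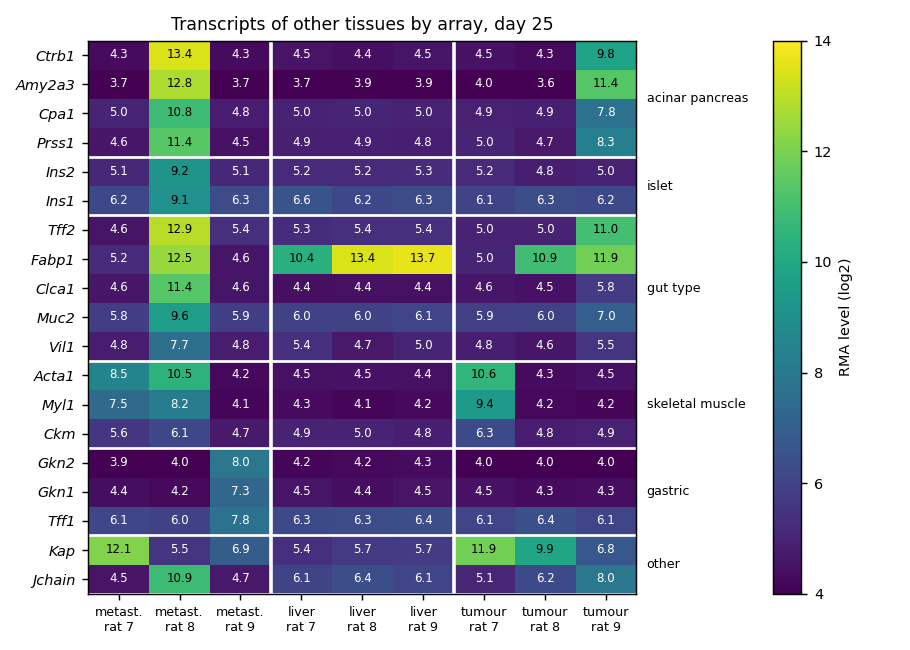
Log2 level (colour) of 19 genes of pancreas, gut, muscle, stomach, kidney and plasma cells (rows) on the metastases, livers and tumours of rats 7, 8 and 9 (columns). Pancreas and gut genes stand out in the metastasis of rat 8 and several of them in the tumour of rat 9, muscle genes in the metastases of rats 7 and 8 and the tumour of rat 7, and Gkn2 and Gkn1 in the metastasis of rat 9.

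Of the 59 genes that lay over 2 units lower in the metastasis of rat 7 than in the other metastases, 2 are given with the tumours. Vcam1, a vascular and stromal adhesion protein, read 6.28, 10.07 and 9.63 in the metastases, against 10.49, 9.51 and 8.69 in the livers, and Gabrp, an epithelial receptor subunit, 5.04, 9.37 and 9.14 in the metastases, against 4.41, 4.22 and 4.41 in the livers, both lowest among the metastases in rat 7. The tumour of rat 7 was lowest among the tumours as well, with Vcam1 at 6.60, 9.22 and 10.00 and Gabrp at 7.38, 9.32 and 9.22 in the tumours of rats 7, 8 and 9. These genes, too, were chosen after their values were seen.

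Set against the liver tumours of the same rats, the metastases differed in few genes by the test. Of 14217 genes 48 were called (0.338%), 1 of them higher (0.00703%) and 47 lower (0.331%). At an unadjusted limma p under 0.05 there were 863, but among 14217 tests many genes pass that cutoff without any difference. Among the 47 lower genes were 11 of the 27 plasma protein genes and 8 of the 20 coagulation genes. Serpinc1 read 4.93, 4.32 and 4.49 in the metastases, against 7.25, 11.80 and 12.27 in the tumours (-5.86, SE 0.87, limma adjusted p = 0.0027). The tumour of rat 7 lay far below the other tumours for this gene. Armc10, a mitochondrial armadillo repeat protein, was the 1 gene higher, at 9.40, 9.46 and 9.54 in the metastases, against 9.11, 9.04 and 8.99 in the tumours (0.42, SE 0.08, limma adjusted p = 0.03). Armc10 was not among the calls with the rat as a fixed block, after a further quantile normalization, with only the arrays compared or with a trended prior, nor without any 1 of the metastases or the tumour of rat 8 or 9. The count of lower genes was 205 without the tumour of rat 7, 21 without that of rat 8, and 25 without that of rat 9 or the metastasis of rat 9. With only the 6 arrays compared in the fit it was 1. Comparisons of metastasis with liver and with tumour share the metastasis arrays.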

How the data were processed

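The authors deposited 1 table of RMA log2 values, per the submitters' processing notes, for 31099 probe sets on 21 arrays. The version of the program and the annotation build behind it were not given in the sources used here. RMA corrects background, normalizes arrays to 1 distribution and summarises probes, so shifts shared by most genes are removed. Probe sets were named from the platform annotation: 20826 had 1 symbol, 436 several and 9837 were not named. Of a gene's probe sets with 1 symbol, the one brightest on average across the 21 arrays was kept, which gave 14217 genes.

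All 7 groups of 3 arrays were fitted in limma 3.58.1 (R 4.3.3) with no block, eBayes and Benjamini-Hochberg adjustment over all genes. The procedure was also run on simulated data with noise independent between arrays, plus a rat offset common to all genes for the block fit. Such data do not mimic tissues that share a rat or pieces that hold other tissue. The labels give metastasis and liver of the same animal. This pairing was used for the differences by rat, the deviations that follow and the block alternatives. The SE and adjusted p-values of the main fit are unpaired. Deviations from the group means correlated at 0.158, 0.151 and 0.046 between metastasis and liver of rats 7, 8 and 9, and 0.578, 0.111 and 0.041 between metastasis and tumour. The labels give no scan date or batch.

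The groups, the 66 gene lists (1392 entries, 1236 measured) and the motifs were chosen with earlier results of these data known. Genes named are those with the largest changes whose arrays do not overlap, the same within the measured range, the leading called members, brightest uncalled members and members against the trend of each list, cell type markers, and the leading genes against tumour and between liver days. Further genes, added after their values were seen, are Apob, C3, Col3a1, Fasn, Gabrp, Gkn2, Isg15, Kap, Mki67, Pcna, Pnpla3, Top2a, Tyms, Vcam1 and Vegfa. The alternatives were a further quantile normalization, centring on array medians, a filter on low values, the mean of all probe sets, a trended prior, only the arrays compared, the rat as fixed or random block, the mean of 9 livers, and each array left out. Promoters are from RefSeq (GRCr8), found for 10945 genes.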

Additional observations from a re-analysis of the deposited data

Results flagged for a closer look

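The genes below were called in the test of metastasis against liver tumour, with adjusted p-values from limma over all genes. They are the largest called differences of that same test, so listing them adds no support to it. Armc10, a mitochondrial protein, read 9.40, 9.46 and 9.54 in the metastases, against 9.11, 9.04 and 8.99 in the tumours, a log2 difference of 0.42, SE 0.08, limma adjusted p = 0.03. That call was lost with the rat as a fixed block, a further quantile normalization, only the arrays compared or a trended prior. It was also lost when any metastasis, or the tumour of rat 8 or 9, was left out. The other 10 are plasma proteins or liver enzymes and were lower in the metastases. The fibrinogen chain Fga read 6.59, 5.28 and 5.64 in the metastases, against 10.17, 13.73 and 13.79 in the tumours (-6.73, SE 0.65, limma adjusted p = 0.00019), and its partners Fgb (-6.45) and Fgg (-6.42) differed likewise. Other probe sets of Fgb gave -0.36 and -0.25 for metastasis minus liver. Orm1, an acute phase protein, read 7.38, 5.57 and 6.08 in the metastases, against 10.20, 14.08 and 14.13 in the tumours (-6.46, SE 0.73, limma adjusted p = 0.0003). Cyp2c6v1, a liver P450, read 4.46, 3.90 and 4.09 in the metastases, against 7.09, 11.76 and 12.16 in the tumours (-6.19, SE 0.88, limma adjusted p = 0.0021). The differences were -6.08 for the protease inhibitor Pzp, -6.04 for Itih3 and -5.90 for Itih4, which are chains of plasma inhibitors, -5.86 for antithrombin, Serpinc1, and -5.86 for fetuin A, Ahsg. In Fga, Orm1 and Cyp2c6v1 the tumour of rat 7 lay under the tumours of rats 8 and 9. With only the 6 arrays compared in the fit, 1 lower gene was called rather than 47.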

How the results depend on the processing

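Results were recomputed under 9 alternatives and with each array left out in turn, where they could be. The mean of 9 livers bears only on metastasis against liver, days 10 and 25 have no shared rats for a fixed block, and the low-value filter kept 657 of the 745 named genes. The counts of genes higher and lower in metastasis than in liver stayed within 1.5 times of 4741 and 3361 under every alternative run except the fit to only the arrays compared, which called 2150 lower genes. Leaving out single arrays gave 4293 to 4676 higher and 2852 to 3413 lower, the lowest without the liver of rat 9. Against the tumours, the 1 higher gene became 2 with the mean of all probe sets and 0 with only the arrays compared, a trended prior or the rat as a fixed block, and 0 to 15 with arrays left out. The 47 lower genes became 1 with only the arrays compared and 21 to 205 with arrays left out. For liver at day 25 against day 10, only the arrays compared gave 329 higher and 228 lower genes, and arrays left out gave 365 to 1032 higher and 231 to 619 lower. The mean of the 9 livers of all days reversed Acly (-0.92), Elovl6 (-0.24), Fads1 (-1.18), Fasn (-0.99), Fst (1.45), Gstt3 (-1.08), Hmox1 (0.20) and Pnpla3 (-3.08). The mean of all probe sets reversed Pfkm (0.16) and Plin2 (0.83). Single arrays reversed Guca2a (-0.69 to 0.63), Jchain (-1.59 to 1.59), Srxn1 (-0.72 to 1.01), Gkn2 (-0.28 to 1.74) and the medians of the B and plasma cell (-0.15 to 0.18), acinar (-0.21 to 2.48), islet (-0.14 to 0.50) and intestinal (-0.20 to 0.23) lists, counting list medians over 0.1 from 0 on both sides. Medians nearer 0 also changed sign: mucins (to -0.04), Nrf2 targets (to -0.07, without the liver of rat 9), chemokines (to -0.05), cholesterol (to 0.14), Hgf and Met (to -0.07), T and NK cell (to 0.01) and mesothelium (to -0.02). The 4 lists, Guca2a and Jchain turned without the metastasis of rat 8, Gkn2 without that of rat 9 and Srxn1 without the liver of rat 7. The causes were not tested beyond these settings.

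With the rat as a fixed replicate block, 4881 genes were higher and 3371 lower in metastasis than in liver, and 33 were lower than in tumour. Each rat gave a single array per tissue, so the fixed block left every difference as it was. No direction or list median could change by it, only the errors and the calls. Of 745 named genes it made 29 further calls and lost 6. The random block made 18 further calls and lost none. The same 745 genes lost 29 calls after a further quantile normalization and 75 with only the arrays compared, and none with a trended prior. Low levels limit what can be seen: in 24 of the 30 genes with the largest changes the lower group lay under the lowest array median.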
